A study of Mus musculus with 22 samples.

Results

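Unmapped glutamatergic neuron nuclei were the nuclei that the deposited annotation left as unmapped neurons and that held at least 1 unique molecular identifier (UMI, a counted RNA molecule) of Slc17a6, the vesicular glutamate transporter VGLUT2, and 0 UMIs of the inhibitory genes Slc32a1, Gad1 and Gad2. Members were thus chosen by their UMIs of these 4 genes. The fits did not leave those genes out, but no test result for them is read. The rule found 1384 nuclei among 11986 nuclei labelled as unmapped neurons in the deposited metadata (11.5%) and 24965 nuclei in all (5.54%). Male Lep ob/ob mice, which lack functional leptin and are obese and diabetic, received either FGF1 at a dose of 3 µg or its vehicle into the lateral brain ventricle (icv) once, at an age of 11 weeks, and each vehicle mouse was pair-fed (PF), getting only as much food as FGF1 mice ate. Nuclei of the hypothalamus were profiled by droplet-based single-nucleus RNA sequencing on Day 1 (3 FGF1 and 3 PF vehicle mice) and Day 5 (2 and 2 mice), with 1 library per mouse. Both treatments were thus compared within leptin-deficient animals, and no lean mice are part of the comparison.

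Glutamatergic neurons load the excitatory transmitter glutamate into synaptic vesicles through vesicular glutamate transporters, and in the hypothalamus nearly all of them use VGLUT2. They include ventromedial neurons marked by Nr5a1, paraventricular neurons marked by Sim1 and lateral hypothalamic and mammillary groups, which take part in satiety, energy expenditure and autonomic and endocrine output. GABA neurons instead make their transmitter with Gad1 and Gad2 and load it with Slc32a1. Many peptides of feeding circuits occur in one transmitter class or in both.

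The rule rested on few molecules. Of the 1384 members, 1067 (77.1%) held 1 UMI of Slc17a6, 254 held 2 UMIs and 63 held 3 or more. Members with 1 UMI had a median depth of 2613 UMIs and those with 2 or more had 3261. Just outside the rule lay 422 unmapped nuclei with at least 1 Slc17a6 UMI and exactly 1 inhibitory UMI, whose median depth was 4111.5 UMIs. The remaining unmapped neurons comprised 4878 nuclei with inhibitory UMIs only (40.7%, here called unmapped GABA nuclei), 845 with both kinds of UMI (7.05%) and 4879 with neither (40.7%). Members had a median of 2725.5 UMIs (range 1364 to 10170), close to the 2749.5 of unmapped GABA nuclei, so that depth differed little between these classes, whereas nuclei with neither kind had 2260.

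Free RNA in droplets gives UMIs in nuclei that do not express a gene, so the rate of the rule was also read in nuclei that should lack Slc17a6. Among 1538 nuclei annotated as astrocytes, with a median of 2693.5 UMIs, 4.88% met the same Slc17a6 and inhibitory criteria (95% exact binomial interval 3.85 to 6.07), against 11.5% (11.0 to 12.1) of unmapped neurons, whose median was 2572.5 UMIs. Tanycytes, the glia that line the floor of the third ventricle, stood at 4.34% (2.63 to 6.69). Mapped excitatory types stood higher, with 29.5% of 2136 n29.Nr5a1/Adcyap1 nuclei and 33.0% of 1296 Glu5 nuclei. With each nucleus thinned to 1000 UMIs, Slc17a6 was detected in 6.94% of unmapped neurons, 2.34% of astrocytes and 14.6% of n29 nuclei. Nuclei annotated as oligodendrocytes (10.8%, 9.24 to 12.6), committed oligodendrocyte precursors (9.82%, 7.66 to 12.3) and microglia (13.1%, 10.2 to 16.4) met the rule about as often as unmapped neurons. Inhibitory UMIs were also as frequent in these 3 classes (46.8%, 47.9% and 49.5% of nuclei) as in unmapped neurons (47.7%), so that their labels are in doubt and they were not used as background. Astrocytes held inhibitory UMIs in 33.8% of nuclei and tanycytes in 17.8%, and astrocytes are the background used below. The share of unmapped neurons therefore lay above that of astrocytes and tanycytes and below that of the mapped excitatory types named, and some members may hold Slc17a6 from free RNA only. These intervals cover counting error only.

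Members carried neuronal genes and no other vesicular glutamate transporter at more than a trace. At equal depth, Meg3, a long noncoding RNA abundant in neurons, was detected in 99.9% of members and 49.5% of astrocytes, the synaptic vesicle calcium sensor Syt1 in 76.2% and 23.5%, Snap25 of the vesicle fusion complex in 60.5% and 28.4% and the neuronal nuclear protein gene Rbfox3 in 13.8% and 2.67%. The summed level of the 10 measured neuron markers was 23871 to 32794 CPM in the members of the 10 mice and 6445 CPM in astrocytes (counts relative to all UMIs of the class). Slc17a7, the transporter of cortical neurons, had 0 UMIs in 1384 nuclei, which allows a share of up to 0.217% of nuclei with a UMI. Slc17a8 had 18 UMIs, in 1.16% of members. These neuron markers thus stood above their level in astrocytes, and the glutamatergic part of the label rests on the Slc17a6 UMI that chose the nuclei.

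The 6 Day 1 mice gave between 44 and 273 members each and the 4 Day 5 mice between 27 (vehicle 38) and 288 (FGF1 45). Summed member UMIs per mouse ran from 121749 to 851222, and the median depth of a member ran from 2003 UMIs (FGF1 1, Day 1) to 4021 (vehicle 1). No barcode sequence was shared by members of different libraries, although 40 members had a barcode that occurred elsewhere in another library. The deposited metadata placed the mice in 5 batches of 1 FGF1 and 1 vehicle mouse each. The vehicle 38 library stood apart on Day 5: its member profile correlated with those of the other 3 libraries at r = 0.776 to 0.789 across genes (log2 CPM), while those 3 correlated at 0.918 to 0.930 with each other, and it held the fewest members.

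FGF1 did not detectably alter how many unmapped neurons met the rule. On Day 1 the share was 11.2% ± 2.01 (SD, n = 3, range 9.39 to 13.4) after FGF1 and 11.0% ± 1.85 (n = 3, range 9.11 to 12.8) after vehicle, and the ranges of the groups overlapped (difference 0.197 percentage points, exact two-sided permutation test, p = 0.800). On Day 5 it was 11.4% ± 0.833 (n = 2) and 12.4% ± 1.55 (n = 2), again overlapping (difference -1.09 points, exact permutation p = 0.667). Exact permutation tests in these designs cannot go below p = 0.1 on Day 1 or 0.333 on Day 5. Thinned to 1000 UMIs, the shares were 5.96% ± 0.484 and 5.78% ± 0.311 on Day 1 and 6.51% ± 0.145 and 5.62% ± 1.41 on Day 5, the latter with the sign of the difference turned, so no direction is given.

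**Figure D1:**
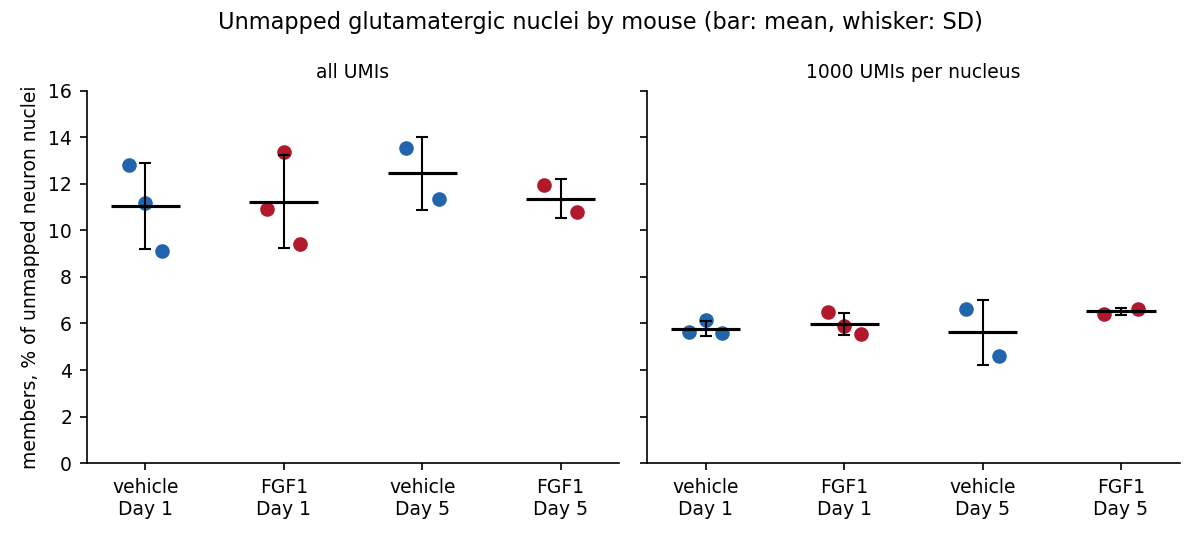
Share of unmapped neurons that met the glutamatergic rule, in percent, by mouse, as deposited and after thinning each nucleus to 1000 UMIs. Points are mice and lines are group means; on both days the FGF1 and vehicle mice overlapped, around 11% as deposited and around 6% after thinning.

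Next, the members were compared with unmapped GABA nuclei of the same mice. Because the rule separated these classes by transmitter genes, the values are a description and no test was run. Levels here are unscaled CPM, the UMIs of a gene relative to all UMIs of the class in a mouse, and genes are compared only with themselves, since nuclear counts include introns. Of 4134 genes at 50 CPM or more in either class, 5 were higher and 1 was lower in members with no overlap over the 10 mice, and 57 were higher and 60 lower in every one of the 10 within-mouse comparisons.

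The genes without overlap were led by transcription factors. Ebf1, a helix-loop-helix factor of differentiating neurons, had a mean of 217 ± 62.9 CPM in members (n = 10 mice, 131 to 353) and 53.2 ± 11.3 in GABA nuclei (33.8 to 65.9), a ratio of 4.07. Sim1, which is needed to form the paraventricular and supraoptic nuclei, stood at 131 ± 41.9 (65.7 to 189) and 32.4 ± 10.8 (18.1 to 54.5), a ratio of 4.03. Both were also far above the 23.3 and 18.0 CPM, respectively, of mapped n29 ventromedial nuclei, while Glu5 nuclei had a Sim1 level of 125 CPM, close to that of the members, and an Ebf1 level of 82.9. After thinning, Sim1 was detected in 10.3% of members, 2.23% of GABA nuclei and 0.780% of astrocytes. Sim1 lies on chromosome 10 (50894754 to 50989152, plus strand) and Ebf1 on chromosome 11 (44617317 to 45008091, plus strand) of GRCm38.

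The other genes without overlap act at synapses or membranes. Tmem163, a zinc transporter of synaptic vesicles, was at 155 ± 38.3 CPM in members and 63.7 ± 13.6 in GABA nuclei. Cacna2d1, an auxiliary calcium channel subunit, was at 762 ± 143 against 366 ± 49.5, and the contactin-associated gene Cntnap5b at 737 ± 105 against 421 ± 68.3. Cacna2d1 was higher still in mapped n29 nuclei, at 1225 CPM. Nrxn3, a presynaptic adhesion molecule, was the gene on the low side, at 2411 ± 352 CPM against 6986 ± 1269 in GABA nuclei (ratio 0.345), and had a mean of 2117 in Glu5 nuclei and 1783 in n29 nuclei. The n29 mean was below the lowest mouse's members (1958 to 3100), but the n29 values of single mice, 1308 to 2331, overlapped them.

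Near the threshold of the rule the levels changed in steps between classes. Pooled over mice, Nrxn3 was at 2444, 2347 and 2488 CPM in members with 1, 2 and 3 or more Slc17a6 UMIs, 3927 in the nuclei just outside the rule, 4165 in nuclei with neither kind of UMI, 6329 in GABA nuclei with 1 inhibitory UMI and 7238 in those with 2 or more. Sim1 was at 127, 122 and 103 CPM in members with 1, 2 and 3 or more Slc17a6 UMIs, 74.9 just outside, 91.5 in nuclei with neither, and 41.0 and 25.3 in GABA nuclei with 1 and with 2 or more inhibitory UMIs. Among members, neither gene moved away from the GABA level with more Slc17a6 UMIs, and nuclei just outside the rule and nuclei with neither kind of UMI lay between the classes.

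**Figure D2:**
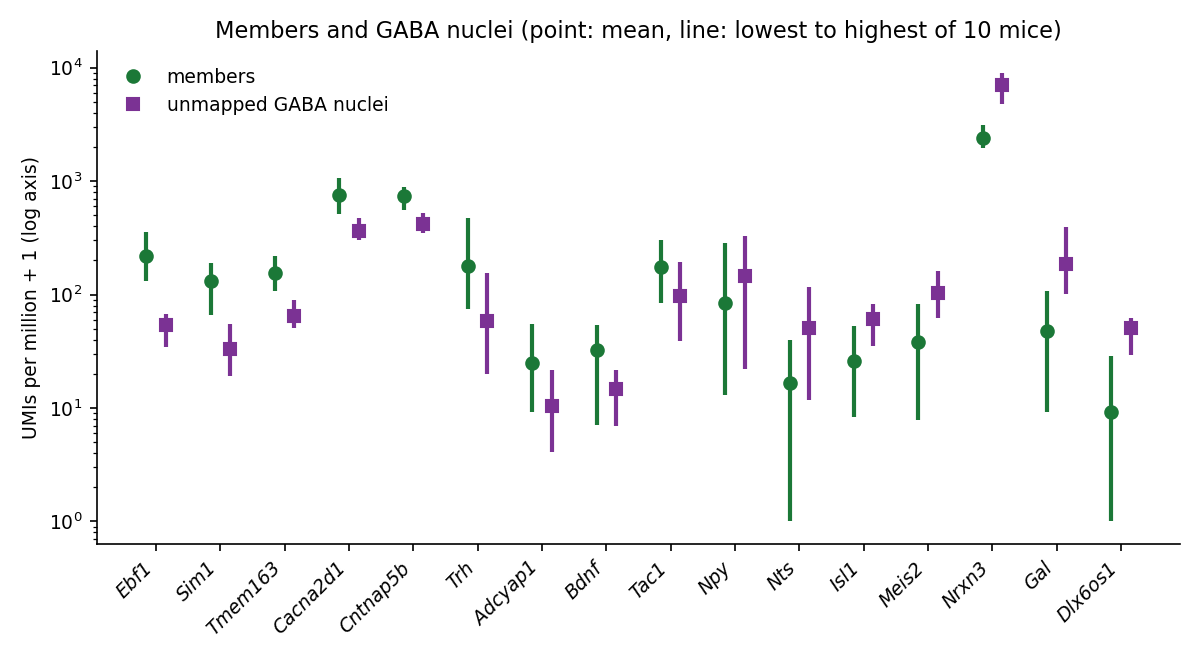
Levels in unmapped glutamatergic nuclei and unmapped GABA nuclei of the same 10 mice, in unscaled CPM on a log axis, for genes named in the text. Each point is the mean of the 10 mice, and each line runs from the lowest to the highest mouse. Sim1 and Ebf1 were about 4 times higher in the glutamatergic nuclei, and Nrxn3 was lower, without overlap.

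Among peptide genes, 27 of 44 measured were detected in 2% or more of members, but few stood above the free RNA background. At equal depth, 5 of the 27 were detected in a larger share of members than of astrocytes with 95% intervals that did not overlap: Trh, Penk, Tac1, Adcyap1 and Scg2. Such intervals pool the nuclei of all mice. They cover counting error only and leave out the spread between mice, so here and below they describe and do not test. Trh, the thyrotropin-releasing hormone, was detected in 9.39% of thinned members, 3.55% of GABA nuclei and 3.97% of astrocytes, and was higher in members than in GABA nuclei in all 10 mice (178 ± 116 against 57.1 ± 42.6 CPM). Tac1, which encodes substance P, was detected in 11.9%, 7.93% and 8.06%, and was likewise higher than in GABA nuclei in all 10 mice (174 ± 77.0 against 95.8 ± 56.3 CPM). Adcyap1, which encodes the peptide PACAP of ventromedial and other excitatory neurons, was detected in 2.82%, 1.11% and 1.11%, and reached 3.75% in n29 nuclei. These 3 peptides, with the neurotrophin Bdnf (3.25% against 1.29% in GABA nuclei) and the corticotropin-releasing hormone binding protein Crhbp, made up the 5 detected more often in members than in GABA nuclei beyond counting error.

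For 8 other peptides (Agrp, Npy, Avp, Oxt, Sst, Gal, Pmch and Hcrt), the share of members with a UMI lay below that of astrocytes at equal depth, so over the members as a whole it is not read as expression above background. Pmch, the melanin-concentrating hormone, was detected in 7.08% of thinned members and 23.5% of astrocytes, and Agrp in 7.88% and 15.3%. Gal, the peptide galanin, was nevertheless much lower in members than in GABA nuclei in all 10 mice, at 47.0 ± 32.9 against 184 ± 97.2 CPM. Gal, Tac2 and the neurotensin gene Nts were the 3 peptides detected less often in members than in GABA nuclei beyond counting error.

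Genes listed by hypothalamic region, not all of them regulators, were detected unevenly. In 2% or more of members were 7 of 7 listed paraventricular and supraoptic genes, 7 of 9 thalamic and zona incerta genes, 6 of 10 ventromedial genes, 5 of 9 lateral hypothalamic genes, 5 of 14 inhibitory lineage genes, 4 of 11 preoptic genes, 3 of 10 mammillary genes and 1 of 7 arcuate genes. Of the 35 listed genes detected, 9 exceeded astrocytes at equal depth beyond counting error (Lmo3, Sim1, Ntng1, Reln, Isl1, Foxp2, Ebf3, Nos1 and Esrrg), and 6 exceeded GABA nuclei (Sim1, Otp, Ntng1, Lmx1a, Ebf3 and Calb2). Another 6 lay below astrocytes (Nr2f2, Pou3f2, Meis2, Six3, Tcf7l2 and Rora), so the counts by region include genes that are not shown to lie above background. For any gene that astrocytes express themselves, this comparison cannot decide. Otp, the homeobox gene that works beside Sim1 in paraventricular development, was detected in 1.37% of thinned members and 0.520% of astrocytes. Ebf3 was at 22.2 CPM in members and 5.78 in GABA nuclei and was higher in all 10 mice. On the low side, the inhibitory lineage genes Meis2 (37.5 against 103 CPM) and Dlx6os1 (8.16 against 49.3) and the arcuate regulator Isl1 (25.2 against 59.5) were lower in members in all 10 mice. Esrrg, also on the inhibitory lineage list, was at a like level in both classes (173 and 180 CPM).

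The ventromedial program of mapped n29 nuclei was weak in members. Nr5a1, the nuclear receptor SF-1 that specifies the ventromedial nucleus, was detected in 0.578% of thinned members and 1.92% of n29 nuclei, Fezf1 in 0.650% and 2.43%, Gda in 3.03% and 14.2%, and Lmo3 in 4.99% and 15.5%. Astrocytes had 0.325% for Nr5a1, 0.585% for Fezf1, 2.73% for Gda and 1.89% for Lmo3, and of these 4 genes Lmo3 was among the listed regional genes that exceeded astrocytes beyond counting error.

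The shares of members with Fgfr1 and Fgfr3 were below those of astrocytes at equal depth. Astrocytes are no background for a gene that they express themselves, such as Fgfr3. For such genes the comparison cannot decide whether members express them, and Fgfr4 was too sparse to tell. Fgfr2 was detected in 64.2% of members, at 409 ± 87.0 CPM (n = 10 mice), with a mean of 384 in GABA nuclei. Fgfr1 was detected in 13.2%, at 45.9 ± 18.3 CPM, and n29 nuclei had 80.8. Thinned, Fgfr1 was found in 5.27% of members, 10.2% of astrocytes and 9.13% of n29 nuclei, and Fgfr2 in 30.8%, 27.3% and 27.1%. Fgfr3, a receptor of astrocytes, was found in 0.650% of thinned members and 21.8% of astrocytes, and before thinning Fgfr4 was found in 0.361% of members and 0.325% of astrocytes, and Klb, the co-receptor of endocrine FGFs, in 1.01% and 0.455%. Among receptors for feeding signals, the serotonin receptor Htr2c was detected in 48.6% of members (436 ± 78.7 CPM), 49.6% of GABA nuclei and 11.8% of astrocytes, and the leptin receptor Lepr in 5.13%, against 1.11% of astrocytes. The melanocortin receptor Mc4r, with 6 UMIs in all and a share of 0.434% in members and 0.195% in astrocytes, was too sparse to tell from background.

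As a whole the profile of members was near that of other neurons, mapped or not. Across 12510 genes (log2 unscaled CPM, pooled over mice), the correlation of members was 0.992 with unmapped GABA nuclei, 0.981 with n29 nuclei, 0.979 with Glu5 nuclei and 0.973 with n16.Rgs16/Vip nuclei, and 0.772 with astrocytes, 0.761 with tanycytes and 0.551 with endothelial nuclei. Computed in single mice, the ranges overlapped almost in full, at 0.842 to 0.961 for GABA, 0.838 to 0.949 for n29 and 0.831 to 0.952 for Glu5 nuclei, so no order is read from the pooled values of the neuron classes, which also differ in size. These correlations are across genes, which are not independent replicates, and the classes shared libraries and depth. Nuclei annotated as oligodendrocytes also correlated at 0.972, and 10.8% of them met the rule. Those annotated as microglia and committed oligodendrocyte precursors, whose labels are likewise in doubt, correlated at 0.957 and 0.951.

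The label projection that left these nuclei unmapped still recorded a nearest type for each, with a confidence (a fraction) that did not exceed 0.75 in any unmapped nucleus. The nearest type was n29.Nr5a1/Adcyap1 for 431 members (31.1%, median confidence 0.400), n30.Nr5a1/Nfib for 280 (20.2%) and n31.Fam19a2 for 196 (14.2%). Then followed n20.Kiss1/Tac2 with 114, n23.Sst/Unc13c with 77, n15.Pomc/Anxa2 with 68 and n03 with 50 members. Among unmapped GABA nuclei, n29 took 10.1%, n30 13.5% and n31 4.84%, so that these types took larger shares of members, while n03 took more of the GABA nuclei (9.43% against 3.61%).

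Levels within these groups only in part carried the genes of the type's name, and since the same counts gave the projection they are a description. The 68 members nearest to n15.Pomc/Anxa2 had Pomc, the precursor of melanocortin peptides, at 595 CPM against 19.1 in other members, and 35.3% held a Pomc UMI against 4.41%. The members nearest to n23.Sst/Unc13c had Sst at 1072 against 146 CPM, those nearest to n30.Nr5a1/Nfib had Nfib at 216 against 39.2, and those nearest to n31.Fam19a2 were led by the vesicle gene Synpr (280 against 100). The 50 members nearest to n03 were led by Calca (104 against 5.36 CPM), Trh (950 against 159) and Gpc5 (3306 against 686). The largest group, nearest to n29, was led in pooled counts by Pmch (234 against 92.2, with a UMI in 20.6% against 16.7% of nuclei). UMIs of Pmch in members did not exceed the astrocyte background, and its level ran from 23.2 to 308 CPM between mice. Next came Cnksr2, Nrp1 and Col25a1, and Nr5a1 was not among the leading genes.

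On Day 1, the share of members nearest to n29 was 25.0% ± 5.17 (n = 3) after FGF1 and 40.5% ± 8.88 (n = 3) after vehicle, and the groups did not overlap. The share nearest to n31 was 16.7% ± 2.53 and 12.0% ± 1.42. Both reached the smallest exact permutation p that 3 against 3 mice allow (p = 0.1), and over the 7 types with 50 or more members the adjusted p was 0.350, so that neither difference passed. Median member depth did not overlap either, at 2003, 2930 and 2477 UMIs in FGF1 mice 1 to 3 and 4021, 2987 and 3416.5 in vehicle mice 1 to 3. Members nearest to n29 had a median of 3084 UMIs, against 2725.5 over all members. The part of depth in these shares was not tested. On Day 5 the adjusted exact permutation p was 1 for each type.

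**Figure D3:**
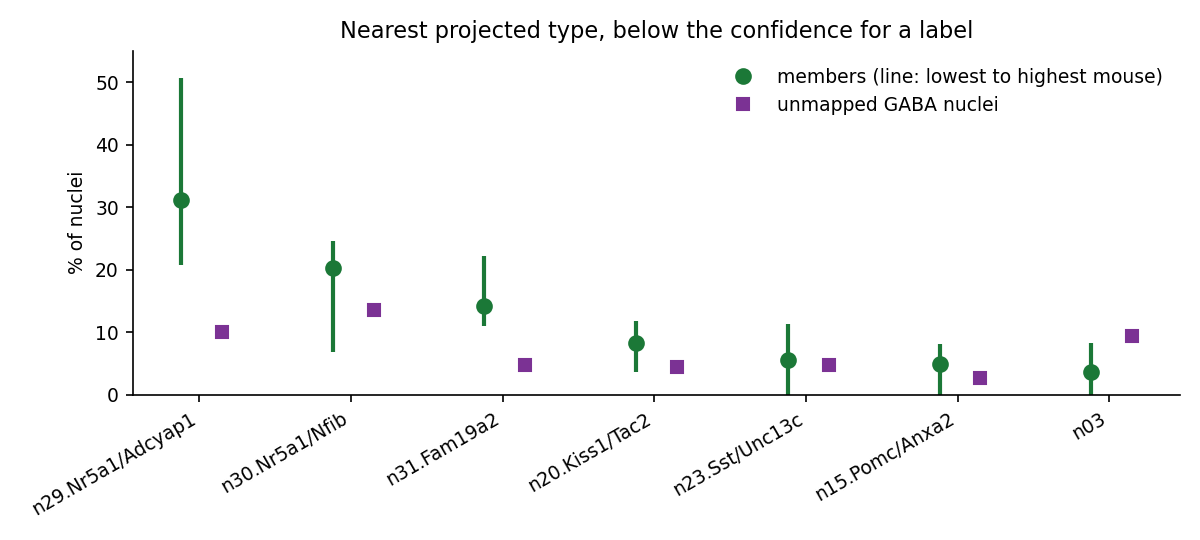
Share of unmapped glutamatergic nuclei, in percent, by the nearest projected type, for the 7 types with 50 or more members. Each round point pools all 10 mice, with a line from the lowest to the highest mouse. Squares are unmapped GABA nuclei, and days and treatments are not split. The n29 type took 31.1% of members and 10.1% of GABA nuclei.

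To ask which genes FGF1 changed in these nuclei, UMIs were summed per mouse and tested with edgeR's quasi-likelihood test (Benjamini-Hochberg FDR over all genes tested). From here levels are TMM-scaled CPM unless called unscaled, and differences are log2 FGF1 over vehicle. On Day 1, S100a6, a small calcium-binding protein, and Vim, the intermediate filament vimentin of tanycytes and reactive glia, were higher after FGF1 in members. They were the 2 of 6618 genes called (0.0302%), and no gene was called lower (152 lower at an unadjusted p under 0.05, and 0 by DESeq2, which called 3 genes).

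The S100a6 level was 206, 92.7 and 114 CPM in FGF1 mice 1, 2 and 3, and 7.02, 7.15 and 0 CPM in vehicle mice 1, 2 and 3. All 3 FGF1 mice lay above the vehicle mice, in each of the 3 batches, beside 10.5% of all genes tested whose groups did not overlap. The log2 difference was 4.54 (SE 0.565, edgeR FDR = 0.0119), and S100a6 lies on chromosome 3 (90612882 to 90624181, plus strand). A UMI of S100a6 was found in 93 of 273, 34 of 159 and 8 of 51 members of the FGF1 mice and in 1 of 73, 3 of 122 and 0 of 44 members of the vehicle mice, where 0 of 44 allows up to 6.82%. In FGF1 3, 1 nucleus held 7 of the 17 UMIs of S100a6.

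The Vim level was 78.9, 42.3 and 93.5 CPM in FGF1 mice 1, 2 and 3 and 3.51, 2.38 and 6.30 CPM in the vehicle mice. The groups did not overlap in any batch. The log2 difference was 4.16 (SE 0.610, edgeR FDR = 0.0356). Vim lies on chromosome 2 (13573927 to 13582826, plus strand). With the batch as a block neither gene passed (edgeR FDR = 0.0652 for S100a6 and 0.0771 for Vim), at log2 differences of 4.39 and 4.18. Without vehicle 1 or vehicle 2 neither passed, with edgeR FDR of 0.243 and 0.196 for S100a6 and of 0.519 and 0.572 for Vim. The Vim call was also lost without FGF1 1 (FDR = 0.0746) or FGF1 3 (FDR = 0.0923), and no gene was called in nuclei thinned to 1000 UMIs or in members with at least 2 Slc17a6 UMIs.

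The levels of the same genes in glia and in other neurons of these libraries are given without a test, except in unmapped GABA nuclei. In unscaled CPM, S100a6 in astrocytes was at 1674, 1465 and 1277 in the FGF1 mice and 105, 158 and 247 in the vehicle mice, and in tanycytes at 4713, 3012 and 1814 against 766, 977 and 659. In members it was at 184, 84.7 and 104 unscaled CPM after FGF1, in unmapped GABA nuclei at 172, 51.0 and 61.3, in n29 nuclei at 166, 57.1 and 70.7 and in Glu5 nuclei at 184, 49.8 and 49.8, with all 4 neuron classes far below glia. Vim was at 70.3, 38.6 and 85.4 unscaled CPM in members, 61.9, 32.6 and 29.1 in GABA nuclei and 59.2, 18.6 and 17.7 in n29 nuclei of the same mice. In GABA nuclei neither gene passed, and the edgeR FDR was 0.544 for S100a6 (log2 difference 2.99) and 0.149 for Vim (2.93).

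Of the members, 824 (59.5%) held 0 UMIs of 16 defining genes of astrocytes, tanycytes and ependymal cells. In these, S100a6 was at 191, 54.8 and 56.0 unscaled CPM in the FGF1 mice and 0, 11.1 and 0 in the vehicle mice, and Vim at 77.8, 15.6 and 56.0 against 6.26, 0 and 10.9. In these nuclei the FGF1 and vehicle mice did not overlap for either gene, although Vim in FGF1 2 lay close to vehicle 3, and 0 UMIs of these defining genes does not show that a nucleus held no free glial RNA. The summed level of the 10 astrocyte markers was 821 to 1209 unscaled CPM in members of FGF1 mice and 944 to 1365 in those of vehicle mice, against 11853 in astrocyte nuclei, and that of the 11 tanycyte and ependymal markers was 212 to 827 and 458 to 678. Gpc5 made up most of the astrocyte sum, at a mean of 905 TMM-scaled CPM after FGF1 and 1025 after vehicle. It was higher in members than in GABA nuclei in every mouse (mean 827.5 against 494 unscaled CPM). Nnat made up much of the other sum, so neither sum is read as a measure of free glial RNA. The part of free glial RNA in the S100a6 and Vim calls was not tested. On Day 5, S100a6 in members was at 3.996 and 35.2 unscaled CPM in FGF1 mice 37 and 45 and 4.396 and 8.21 in vehicle mice 28 and 38, so that the groups overlapped.

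The genes next in order of p on Day 1 did not pass the test (edgeR FDR 0.344 to 0.506) and are given as values. Gfap, the astrocyte intermediate filament, was at 53.1, 50.4 and 33.4 CPM after FGF1 and 3.51, 11.9 and 0 after vehicle (log2 difference 2.77), and Serpina3n, an acute-phase protease inhibitor of glia, at 37.0, 56.4 and 33.4 against 0, 4.77 and 12.6 (3.13). Both were called in unmapped GABA nuclei of the same mice (Gfap FDR = 0.0459, Serpina3n FDR = 0.0430), 2 of 3 genes called there (0.0265% of 11328, edgeR). The cytokine signal transducer Stat3 was at 106, 175 and 140 CPM against 52.6, 33.4 and 37.8 (1.76), and Id2, an inhibitor of helix-loop-helix factors, at 99.8, 62.5 and 93.5 against 31.6, 16.7 and 12.6 (2.00). The log2 difference was 2.35 for the integrin Itga6, 1.91 for Zmym1, 1.34 for the splicing factor Srsf5 and -2.19 for the collagen-binding integrin Itga11.

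**Figure D4:**
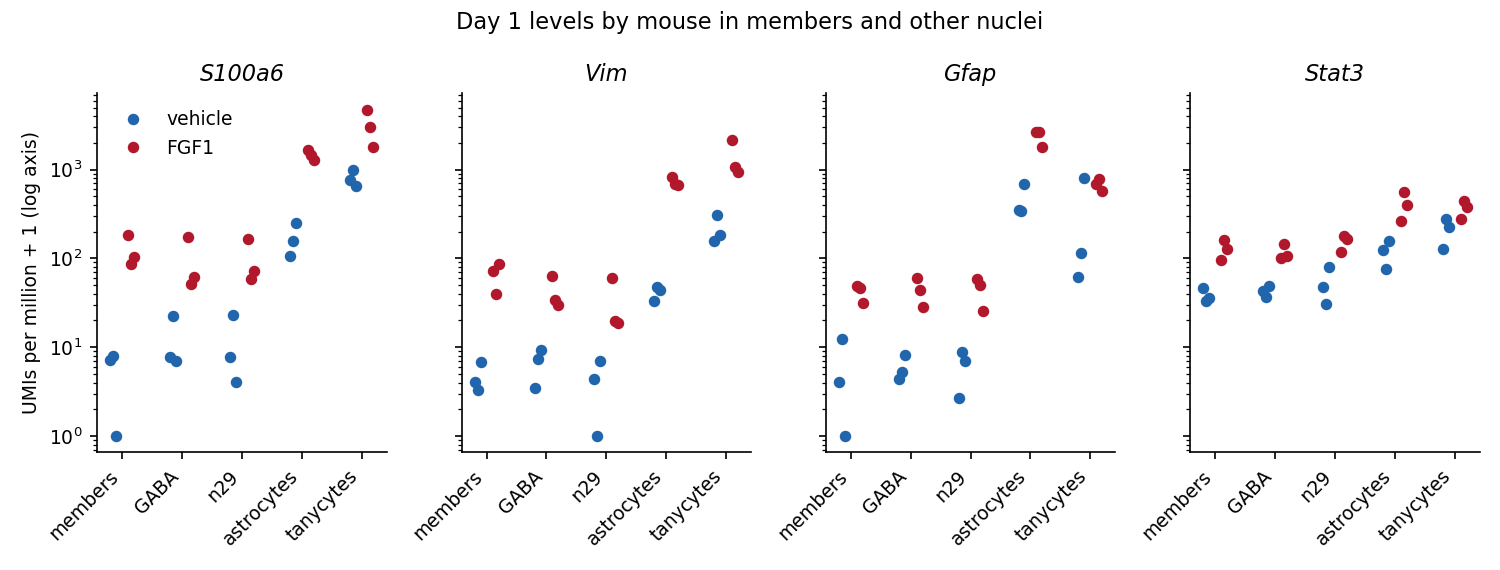
Levels on Day 1 of S100a6, Vim, Gfap and Stat3 in 3 FGF1 and 3 vehicle mice, in unscaled CPM plus 1 on a log axis. The classes are members, unmapped GABA nuclei, n29 nuclei, astrocytes and tanycytes, and each point is a mouse. In members, S100a6 and Vim were called, while Gfap and Stat3 were not. There S100a6 and Vim sit at 38.6 unscaled CPM or more in each FGF1 mouse and at 6.90 or less in each vehicle mouse.

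Gene lists were read against the 0.0302% of all genes called and the median log2 difference of all genes on Day 1, 0.0203. Of 38 lists with a tested gene, 1 held a called gene: the glial response genes, where 2 of 5 tested were called higher (S100a6 and Vim). That list was drawn from the study's own results in these libraries and is not independent evidence of direction. The list of MAPK feedback genes held negative regulators of FGF and MAPK signalling and other genes, such as the transcription factor gene Etv1. Of its genes, 3 of 22 passed the filter on low counts and none was called, with log2 differences of 0.79 for Spred1, 0.87 for Spred2 and -0.31 for Rasa1. None of 3 tested immediate early genes was called, nor any of 7 glucocorticoid-responsive genes, of which the metallothioneins Mt1 and Mt2 stood at 1.48 and 1.58. Sums over all listed genes, in unscaled CPM and without a test, did not overlap between the groups. They were 455, 451 and 513 against 307, 285 and 330 for MAPK feedback genes. Immediate early genes had 454, 287 and 305 against 264, 262 and 214. Glucocorticoid-responsive genes had 2518, 1544 and 1446 against 1095, 1172 and 770. Astrocytes had 851, 630 and 20638, and the part of free RNA was not tested. Within the glucocorticoid list, Mt1 had means of 900 against 319 TMM-scaled CPM and Mt2 of 487 against 158, while Fkbp5 had 92.0 against 107. Sums of the paraventricular and supraoptic list (685 to 755 against 416 to 614) and of oligodendrocyte markers (116 to 171 against 197 to 315) did not overlap either. Of single genes tested, 10.5% did not overlap. None was called among 8 FGF receptor and co-receptor genes, 19 feeding hormone and peptide receptors, 15 peptides, 25 ionotropic glutamate receptors, 31 potassium channels, 38 vesicle release genes or 38 synaptic adhesion genes, whose median log2 differences lay between 0.04 and 0.13.

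Some Day 1 lists leaned without a call. Heat shock and chaperone genes had a median of 0.47, with 15 of 17 tested higher and 0 called. Nuclear oxidative phosphorylation genes, a list added after values had been seen, had a median of 0.44 with 66 of 74 higher, and cytosolic ribosomal protein genes, added likewise, 0.41 with 68 of 73 higher. The summed level of oxidative phosphorylation genes was 17329, 6095 and 5761 unscaled CPM in members of FGF1 mice 1, 2 and 3 and 6241, 10395 and 6210 in those of the vehicle mice, so that FGF1 1 stood above the rest and the other FGF1 mice were the lowest. The heat shock sum was 3282, 1761 and 1581 against 1178, 2717 and 1025, with FGF1 1 and vehicle 2 apart from the other mice. The ribosomal sum was 18241, 8046 and 8227 against 7075, 11344 and 8313, with FGF1 1 the highest and the groups overlapping. The part of these libraries in the medians was not tested. Smaller lists also leaned, with a median of 0.54 for the paraventricular and supraoptic list (4 of 4 tested higher, 0 called) and -0.70 for oligodendrocyte markers (3 of 3 lower, 0 called). Within the paraventricular and supraoptic list, Ntng1 stood at 0.90, Reln at 0.86 and Arnt2 at 0.21, while Sim1 stood at 0.0013.

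On Day 5, all 33 genes called in members were lower after FGF1 (0.407% of 8109 tested, edgeR FDR), and CPM did not overlap between groups for 31 of them, beside 36.9% of all genes tested. No gene was called higher (235 higher at an unadjusted p under 0.05), whereas with the batch as a block 45 genes were called, 8 of them higher, and 26 of the 33 were shared. The largest falls were those of Cox5b, Alkbh6, Cox6a1 and Cox8a, 3 of which encode subunits of cytochrome c oxidase, the last complex of the mitochondrial respiratory chain. DESeq2 called 4 of the 33: Cox5b, Eif1, Mylip and Pde1c.

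Cox5b, a subunit of cytochrome c oxidase, was at 8.56 and 2.49 CPM in FGF1 mice 37 and 45 and at 189 and 76.0 CPM in vehicle mice 28 and 38. The log2 difference was -4.95 (SE 0.493, edgeR FDR = 7.73e-09). Both vehicle mice lay above both FGF1 mice, and vehicle 28 was the highest, as it was for all 10 genes with the largest falls. Cox6a1 of the same complex was at 19.3 and 16.2 CPM against 225 and 42.2 (log2 -3.26), and Cox8a at 40.7 and 23.7 against 355 and 118 (-3.15). Cox5b lies on chromosome 1 (36691449 to 36693681, plus strand).

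Ndufb2, a subunit of respiratory complex I, was at 17.1 and 14.95 CPM after FGF1 and 113 and 33.8 after vehicle (log2 -2.53). Pcsk1n, whose product proSAAS inhibits a prohormone convertase, was at 19.3 and 12.5 against 116 and 33.8 (-2.63). Nnat, the imprinted gene neuronatin, was at 87.8 and 98.4 against 612 and 194 (-2.28, edgeR FDR = 0.0464). In each of these genes vehicle 38 lay between vehicle 28 and the FGF1 mice. The remaining large falls were Alkbh6 (-4.76), the nucleotidase gene Nt5c (-2.58), Cisd1, an iron-sulfur protein of the outer mitochondrial membrane (-2.51), and the synaptic scaffold Lin7b (-2.44).

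For Mylip and Pde1c, 2 abundant genes chosen after their values were seen, the vehicle mice lay near each other, unlike for Ly6h (398 and 152 CPM in vehicle 28 and 38) or Eif1 (271 and 144). Mylip, a ubiquitin ligase that targets lipoprotein receptors, was at 816 and 862 CPM after FGF1 and 1573 and 1783 after vehicle (log2 -0.99, SE 0.154, edgeR FDR = 7.93e-05). Pde1c, a calmodulin-dependent phosphodiesterase, was at 1312 and 842 against 2212 and 2239 (-1.05). In astrocytes too both FGF1 mice lay below both vehicle mice: on Day 5 Mylip was at 699 and 666 unscaled CPM in astrocytes of the FGF1 mice and 1212 and 1632 in those of the vehicle mice, and in members of the Day 1 FGF1 mice alone it ran from 1438 to 5016. Library and treatment were not told apart here. Without vehicle 28, 25 genes were called, 13 of them higher, and they shared Mylip, Pde1c and Znhit1 with the 33. Without vehicle 38, 110 genes were called, 32 of them shared. Either way the vehicle arm was 1 mouse, the spread came from the FGF1 pair alone and the lone mouse was assumed to vary as they did, so these counts do not show that a call is stable. With all 10 mice in 1 fit, which shares the spread of both days, 0 genes were called on Day 5 (223 at an unadjusted p under 0.05).

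**Figure D5:**
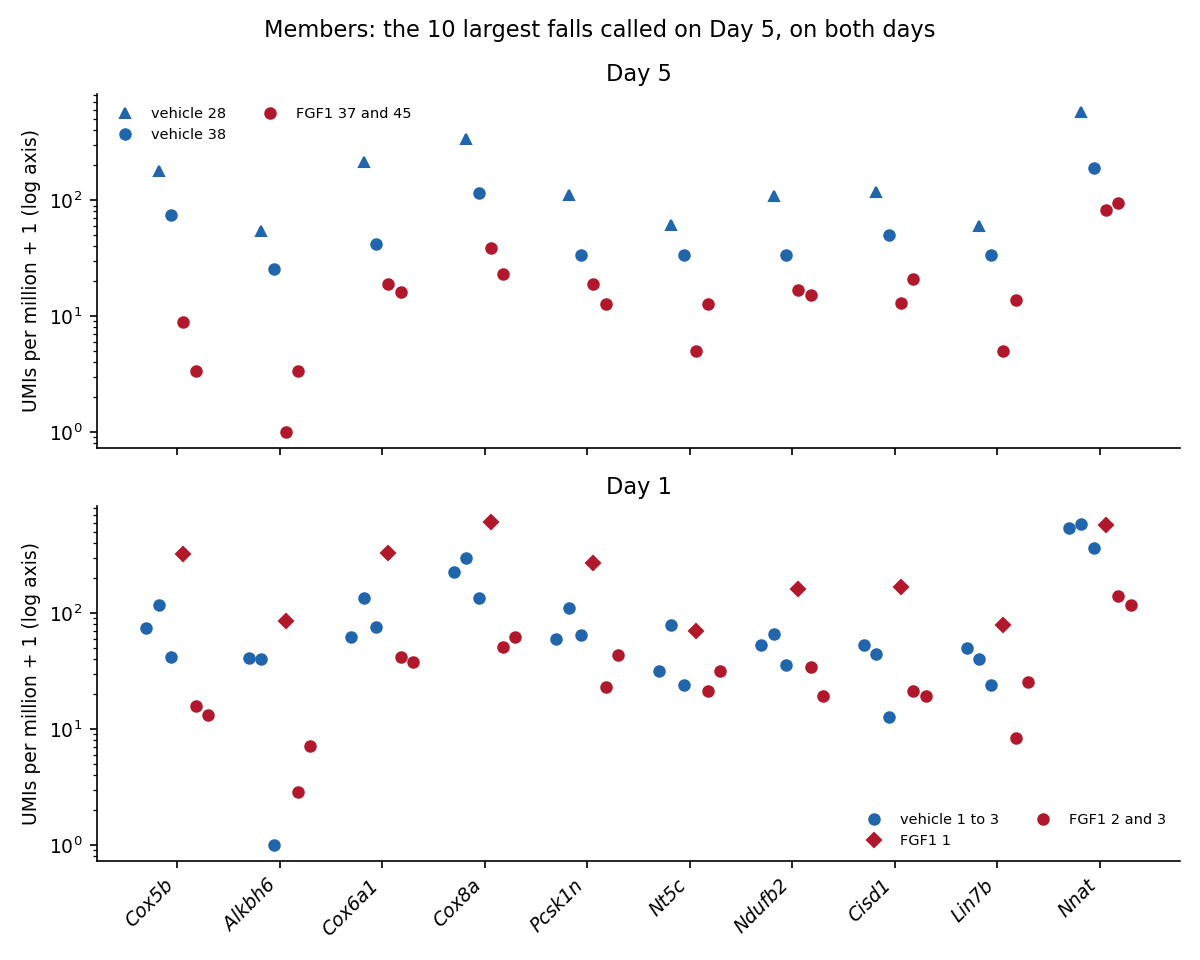
Levels in unmapped glutamatergic nuclei for the 10 genes with the largest falls called on Day 5, in unscaled CPM plus 1 on a log axis. The panels hold the 2 FGF1 and 2 vehicle mice of Day 5 and the 3 FGF1 and 3 vehicle mice of Day 1. Each point is a mouse. In TMM-scaled CPM, vehicle 28 was the highest Day 5 mouse for each gene. In the Day 1 panel, FGF1 1 exceeded every vehicle mouse for Cox5b.

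The respiratory genes also differed between libraries of one group. In unscaled CPM, Cox5b in Day 1 members was at 322, 14.7 and 12.2 in FGF1 mice 1, 2 and 3 and at 73.6, 117 and 40.6 in the vehicle mice, so that FGF1 1 exceeded every vehicle mouse and the other FGF1 mice lay below them. Cox8a was likewise highest in FGF1 1 and lowest in the other FGF1 mice, at 603, 49.7 and 61.0 against 227, 299 and 133. On Day 5 the same libraries were high in other nuclei: Cox5b was at 22.2 and 23.5 unscaled CPM in astrocytes of the FGF1 mice and 758 and 83.0 in those of vehicle 28 and 38, and at 15.7 and 5.56 against 175 and 21.6 in unmapped GABA nuclei. There edgeR called 0 of 12263 genes (1129 at an unadjusted p under 0.05), with log2 -3.40 for Cox5b. The part of the library in the Day 5 calls was not tested.

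By list, 4 of 78 tested oxidative phosphorylation genes were called lower (Cox5b, Cox6a1, Cox8a and Ndufb2), beside 0.407% of all genes, with a median log2 difference of -0.33 and 70 of 78 lower, the list having been added after these values were seen. The sum over all 85 listed genes was 8137 and 6177 unscaled CPM in members of FGF1 37 and 45 and 10133 and 7195 in those of vehicle 28 and 38, so that the groups overlapped and vehicle 28 was the highest. The 5 tested mitochondrially encoded genes, whose RNA in nuclei is carried over from the cytoplasm, were not called, with a median of -0.93. Their list summed to 387 unscaled CPM in members of vehicle 28 and to 82.1, 83.9 and 187 in those of vehicle 38, FGF1 37 and FGF1 45, and the part of such RNA in the calls was not tested. Ribosomal protein genes had 0 of 72 called and a median of -0.25, and the sums over all 81 listed also overlapped (9859 and 6625 against 10468 and 8838 unscaled CPM). Of the 40 lists fixed with the design that had a tested gene, 3 held a called gene, which was Nnat in the tanycyte and the glial response lists and Ptgds, the prostaglandin D synthase of meninges and oligodendrocytes, in the vascular list (log2 -1.44). The summed level of the 11 tanycyte and ependymal markers, Nnat included, was 172 and 209 unscaled CPM in members of the FGF1 mice and 728 and 287 in those of vehicle 28 and 38, and its part in the Nnat call was not tested. That of the 11 vascular markers, Ptgds included, was 65.9 and 77.5 against 167 and 148, and its part in the Ptgds call was not tested. Lists of neuronal function held no call: 0 of 40 synaptic adhesion genes (median 0.15), 0 of 33 potassium channels (0.19), 0 of 25 ionotropic glutamate receptors (0.13), 0 of 40 vesicle release genes (0.13), 0 of 13 peptides (-0.29), 0 of 22 feeding receptors (0.14) and 0 of 9 FGF receptor genes (0.22). Beside 19.3% of all genes, 17 of 40 synaptic adhesion genes, 11 of 33 potassium channels, 11 of 23 sodium and calcium channels and 14 of 40 vesicle release genes were higher without overlap. In the same order, 8, 6, 1 and 1 genes were higher at an unadjusted p under 0.05, beside 2.9% of all genes. Unmapped GABA nuclei of the same mice leaned likewise, so the lean is not particular to members. There 23 of 45, 23 of 44, 14 of 27 and 14 of 44 tested genes of these lists were higher without overlap, beside 20.4% of all genes.

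The FGF1 effect in members was not shown to differ between days. A test of that difference over all 10 mice called 0 of 9024 genes (edgeR, 294 at an unadjusted p under 0.05; DESeq2 called 0). Camk1, Pou2f3, Stat3, Haghl, Dennd6b and Oxld1 had the smallest p (FDR 0.999). For Stat3 the effect on Day 5 minus that on Day 1 was -2.22 on the log2 scale.

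The FGF1 effect differed between members and unmapped GABA nuclei of the same mice for 6 of 9894 genes on Day 1 (0.0606%, edgeR with the mouse as a block; DESeq2 called 0, and 1 was called after thinning) and for 0 of 10087 on Day 5 (408 at an unadjusted p under 0.05; DESeq2 called 0). S100a6 and Vim were not among the 6. The leading gene was Erbb4, the neuregulin receptor, with an FGF1 effect higher in members by a log2 difference of 0.53 (FDR = 0.00203), and none of the 6 was called in either class alone.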

How the data were processed

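The authors aligned single-nucleus libraries with Cell Ranger 1.2 to GRCm38/mm10 and filtered the nuclei with Seurat, per the labels, the submitters' processing notes and the study's methods; doublet detection was omitted for nuclei. The raw UMI counts of 24965 nuclei and 20668 genes were used as deposited. The annotation, the batch and the projection confidence (a fraction) came from the deposited metadata. The normalized and whole-cell files were not used. The nuclei held 701 to 3999 genes.

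Counts of the members were summed per mouse and fitted with edgeR 4.0.16 (filterByExpr, TMM, robust quasi-likelihood; R 4.3.3), FGF1 against vehicle per day. Genes past FDR 0.05 were called, and the 10 largest changes without overlap and with 20 CPM or more were named, with the 10 smallest p where fewer passed. With 10 or fewer mice per comparison, p-values measure the spread between mice. Differences between classes carried the mouse as a block. Alternatives were DESeq2 1.42.0, other filters, scalings and subsets, thinning, blocks and leaving out mice. The tests were checked on simulated counts. The members and gene lists were chosen with earlier results of these data known. Positions are from GRCm38 (Gencode). What the batch column stands for is not given in the sources used here.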

Additional observations from a re-analysis of the deposited data

Results flagged for a closer look

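On Day 1 the FGF1 effect (log2 FGF1 over vehicle) differed between unmapped glutamatergic and unmapped GABA nuclei of the same mice for 6 genes, by the test of that difference itself (edgeR, FDR under 0.05 over 9894 genes); levels here are unscaled CPM. For Erbb4 the difference between effects was 0.53, and the level in members was 1245, 2008 and 1825 in the FGF1 mice and 1583, 726 and 1280 in the vehicle mice. For the transcription factor gene Nfia it was 1.02, with 93.3, 142 and 159 against 104, 62.1 and 34.8 in members and 57.2, 86.6 and 118 against 101, 57.2 and 159 in GABA nuclei. For the imprinted gene Nnat it was 0.61, with levels in members of 568, 138 and 116 after FGF1 and 540, 579 and 359 after vehicle, and in GABA nuclei of 382, 56.3 and 59.8 against 478, 547 and 322; the fitted effect was -0.77 in members and -1.39 in GABA nuclei, neither of which passed. For the metabotropic glutamate receptor gene Grm5 it was -0.45, for the unplaced transcript RP23-231J2.1 it was -0.59, and for the long noncoding RNA D730003I15Rik, at 0 to 23.0 CPM in members, it was -3.95. For Erbb4, Nfia, Nnat, Grm5 and RP23-231J2.1 the FGF1 and vehicle mice overlapped within both classes. D730003I15Rik overlapped in GABA nuclei but not in members, at 1.44, 3.68 and 0 CPM after FGF1 and 6.14, 23.0 and 17.4 after vehicle. It was too low to be tested in members. None of the 6 genes passed FDR 0.05 in one class alone. DESeq2 called 0 genes for this difference, 1 was called after thinning to 1000 UMIs, and 2 to 4 were called without 1 mouse.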

How the results depend on the processing

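Day 1. The 2 calls became 24 without a low-count filter and 5 with inhibitory UMIs allowed; none remained with at least 2 UMIs of Slc17a6 (0), with nuclei thinned to 1000 UMIs (0), or in 2 settings chosen after seeing the data, a batch block (0) and all unmapped neurons (0). DESeq2 called 3, the replicate block 2 and unmapped GABA nuclei (also chosen after seeing the data) 3, of which 0 were shared. Leaving out 1 mouse gave 0 to 4 calls (0 without vehicle 1 or vehicle 2, 1 without FGF1 3, 4 without FGF1 1). Replicate numbers did not pair the mice (correlations of deviations from group means -0.149, -0.217 and 0.133). S100a6 kept its direction in every setting where it was tested, at 2.94 to 4.89 on the log2 scale.

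Day 5. The 33 calls became 4 with DESeq2, 57 without a filter, 5 with at least 2 UMIs of Slc17a6, 3 after thinning, and 0 with all 10 mice in 1 fit, in all unmapped neurons and in GABA nuclei. The batch block gave 45 calls (8 higher, 26 shared). Leaving out 1 mouse leaves an arm of 1, assumed to vary like the other arm, and gave 25 to 110 calls, which are no measure of stability (25 without vehicle 28, 28 without FGF1 45, 55 without FGF1 37, 110 without vehicle 38). Alkbh1 reversed without vehicle 28 (0.19; -2.32 to 0.19 without 1 mouse).

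Differences. The day difference became 10 calls without a filter and stayed at 0 to 0 without any 1 mouse. The Day 1 difference from GABA nuclei became 0 with DESeq2, 1 after thinning and 2 to 4 without 1 mouse (2 without FGF1 2, FGF1 3, vehicle 2 or vehicle 3); on Day 5 it became 2 without a filter, 2 after thinning and 0 to 5 without 1 mouse (3 without FGF1 37, 5 without vehicle 38), and Etl4 reversed (0.0033 without vehicle 28; -0.81 to 0.0033 without 1 mouse).

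Shares. The Day 1 difference was -1.53 points with at least 2 UMIs of Slc17a6 and -0.875 to 1.12 without 1 mouse, and the Day 5 difference 0.895 after thinning, 0.680 over members plus GABA nuclei and -2.19 to 0.00678 without 1 mouse. The causes were not tested. Day 5 had 2 mice per group, vehicle 38 gave 27 members, and most members met the rule by 1 UMI; whether depth set the number of calls was not tested.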
